A study of Homo sapiens with 36 samples.

Results

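NEAT1 and MALAT1 are neighbouring genes on the long arm of chromosome 11, and the peaks over them were examined in 16 lists from chromatin immunoprecipitation followed by sequencing (ChIP-seq). All peaks in the 400 kb of chromosome 11 (hg38) around them were taken, from 65301344 to 65664306, which gave 667 of the 476964 peaks in the series. The 2 genes were then described peak by peak. The lists came from A549, a lung adenocarcinoma cell line, and from BEAS-2B (B2B), a bronchial epithelial cell line without a cancer origin. Neither the labels nor the methods for these samples name a treatment or a genetic change. RNA polymerase II (pol II), H3K4me3, H3K27ac, the Mediator subunit Med1 and the Jun-family proteins JunB, Jun and JunD were profiled in both lines, and CTCF and the cohesin subunit Rad21 in B2B. The 36 samples formed 18 groups of 2 replicates, of which 4 samples in 2 groups were input chromatin and were not analysed here. The authors merged the replicates before calling peaks, so every value below is a single value per line without replicate error, and no difference between the lines could be tested.

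The lines were checked against genes with known patterns. H3K4me3 lay within 1 kb of a start site of AKR1B10, ALDH1A1, ALDH3A1 and AKR1C1 in A549 and of none of them in B2B. CDKN2A and CDKN2B, which A549 is known to have lost, carried 0 such peaks in A549 and 4 and 6 in B2B. KRT8, KRT18, EPCAM, CDH1, VIM, FN1 and ZEB1 carried at least 1 such peak in both lines, and PTPRC and CD3E of leukocytes carried 0 in both. MTAP, which lies beside CDKN2A and was listed with it as lost in A549, had 1 such peak in each line. Apart from MTAP, the A549 markers went with the label of that line. VIM, FN1 and ZEB1, listed for mesenchymal-like B2B cultures, had peaks in both lines and so did not set B2B apart.

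Both genes make long non-coding RNAs that stay in the nucleus and are among the most abundant there. NEAT1 RNA is the scaffold of paraspeckles, nuclear bodies that assemble on the long form of the transcript, while a short form ends near the front of the gene at a polyadenylation site. MALAT1 RNA collects in nuclear speckles, which hold splicing factors, and its mature end is made by RNase P and RNase Z, which release a small RNA that resembles a tRNA. AP-1, the factor to which the Jun-family proteins belong, binds DNA as a dimer at the sequence TGACTCA, and Jun also dimerises with proteins of the ATF family at the cyclic AMP response element (CRE) TGACGTCA.

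NEAT1 (ENSG00000245532.11) spans 65422774 to 65445540 on the plus strand, 22767 bp in all. Of its 9 annotated transcripts, 8 end before the long form does, the last of them at 65426513. MALAT1 (ENSG00000251562.11) spans 65497640 to 65508073 on the plus strand, 10434 bp, and starts 52099 bp past the end of NEAT1. TALAM1, an antisense transcript, lies within MALAT1 from 65499312 to 65507432, and since ChIP-seq has no strand its signal and that of MALAT1 cannot be told apart.

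The reference sequence is shown first at the places on which the Jun-family results turn. Each window of 101 bp is centred on the Jun summit, is written along the plus strand of hg38 from 5′ to 3′, and carries in capitals any TGACTCA or its complement TGAGTCA, any TGACGTCA and, over the 2 genes, any TATAAA. The first set holds windows before and over NEAT1 that all 3 proteins bound in A549, at -1401, -527, 18, 2566 and 3530 bp from the gene start.
NEAT1 -1401, chr11:65421323-65421423: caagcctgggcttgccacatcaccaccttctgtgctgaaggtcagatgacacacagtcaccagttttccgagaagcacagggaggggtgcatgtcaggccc
NEAT1 -527, chr11:65422197-65422297: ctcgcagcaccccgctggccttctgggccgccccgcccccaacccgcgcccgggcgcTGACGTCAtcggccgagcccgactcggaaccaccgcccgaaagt
NEAT1 18, chr11:65422742-65422842: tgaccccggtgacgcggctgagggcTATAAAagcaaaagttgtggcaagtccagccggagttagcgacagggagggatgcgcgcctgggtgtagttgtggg
NEAT1 2566, chr11:65425290-65425390: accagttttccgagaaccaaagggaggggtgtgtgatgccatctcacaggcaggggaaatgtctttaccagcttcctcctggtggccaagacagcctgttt
NEAT1 3530, chr11:65426254-65426354: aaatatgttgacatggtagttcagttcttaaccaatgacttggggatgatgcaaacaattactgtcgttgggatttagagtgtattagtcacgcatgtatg

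The site with the highest Jun fold of these in A549, at -527 bp, held the CRE and no TGACTCA, while in B2B the Jun fold was highest at -1401 bp. TGACGTCA occurred in 1.55% of the same windows at all A549 Jun peaks on chromosomes 1 to 12 and in 0.864% at all B2B Jun peaks. The window at the gene start held a TATAAA whose first base lay at -31 bp from the start of the long transcript. The windows at -1401 and 2566 bp shared a run of 16 bp, accagttttccgagaa, and 31 of the 38 bp from the start of that run were the same in both. None of the other pairs of windows shown shared a run over 11 bp.

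For MALAT1 the RefSeq promoter sequences of GRCh38.p14 are shown, 250 bp before to 50 bp after each of 2 start sites, because A549 had Jun-family peaks at both and B2B at the second alone. The first ends past the gene start and covers the A549 site at 44 bp, and the second is that of a start 1405 bp into the gene and covers the site that both lines shared.
MALAT1 first start, chr11:65497488-65497787: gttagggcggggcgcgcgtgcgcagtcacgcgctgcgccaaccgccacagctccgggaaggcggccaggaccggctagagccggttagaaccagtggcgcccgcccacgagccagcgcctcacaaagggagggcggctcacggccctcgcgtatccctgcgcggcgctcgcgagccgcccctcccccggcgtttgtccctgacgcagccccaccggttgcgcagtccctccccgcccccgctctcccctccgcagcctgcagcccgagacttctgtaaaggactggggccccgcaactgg
MALAT1 second start, chr11:65498795-65499094: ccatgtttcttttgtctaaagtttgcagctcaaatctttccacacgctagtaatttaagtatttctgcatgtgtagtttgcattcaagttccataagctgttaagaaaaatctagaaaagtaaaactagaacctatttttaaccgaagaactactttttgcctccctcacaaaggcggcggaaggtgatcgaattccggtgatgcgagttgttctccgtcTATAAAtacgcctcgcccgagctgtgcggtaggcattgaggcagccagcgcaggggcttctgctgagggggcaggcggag

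Neither promoter held TGACTCA on either strand or TGACGTCA, which 4.95% and 1.85% of the 35116 RefSeq promoters of this length held. The second promoter held 1 TATAAA that began at -30 bp from its start. Over all promoters 11.5% held TATAAA or its complement TTTATA anywhere, and 2.21% held a TATAAA that began 35 to 20 bp before the start. Of the 40 start sites that GENCODE lists for MALAT1, 11 lay between 1398 and 1451 bp.

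Pol II covered the 2 genes almost from end to end in both lines. Pol II peaks lay over 94.1% of NEAT1 in A549 and 99.4% in B2B, and over 100% of MALAT1 in both. Among 17723 protein-coding and long non-coding genes of at least 5 kb on chromosomes 1 to 12, pol II peaks covered 90% or more of 74 genes (0.418%) in A549 and of 4 genes (0.0226%) in B2B. The 4 genes in B2B were NEAT1, MALAT1, TALAM1 within it and HSPA5, which encodes the chaperone BiP of the endoplasmic reticulum. The next gene in B2B was PLK2, at 81.4% of 6158 bp. By covered base pairs NEAT1 ranked 3 of 24480 genes in B2B, with 22620 bp, after MIR4435-2HG with 27381 bp and an unnamed gene with 24514 bp, both of them far longer genes of which 5.29% and 9.09% were covered. In A549 NEAT1 ranked 53 with 21424 bp. MALAT1, with 10434 bp, ranked 264 in A549 and 43 in B2B.

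**Figure D1:**
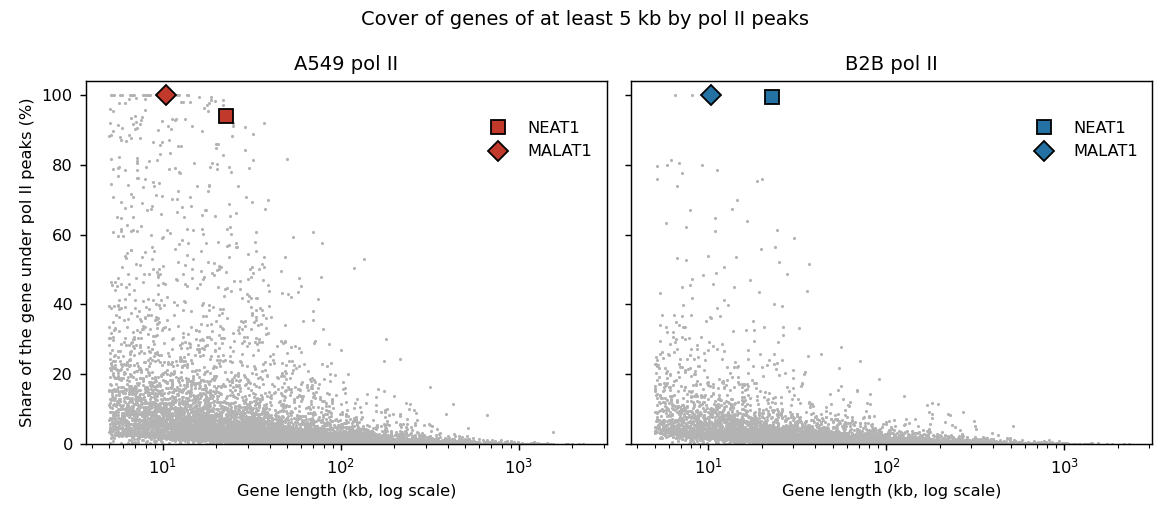
Share of each gene of at least 5 kb that lay under pol II peaks (%), against gene length (kb, log scale), in A549 and B2B. Grey points are genes on chromosomes 1 to 12 with any cover, the square is NEAT1 (94.1% and 99.4%) and the diamond is MALAT1 (100% in both), and few genes of the length of NEAT1 came near it in B2B.

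Along NEAT1 the A549 signal was cut into pieces in the middle of the gene. The strongest peak over a gene is given here and below as the one of highest significance in its list. In A549 it ran from 65420700 to 65430884, with a fold enrichment over local background of 65.4 and its summit 46 bp from the gene start. The last A549 peak over the gene ran from 65437373 to 65449198, with a fold of 25.9 and its summit at 21887 bp, near the end of the gene. Between them lay 5 peaks with folds between 4.18 and 16.7, and when the gene was divided into 10 equal parts, parts 4, 5 and 7 were 81.9%, 70.8% and 88.3% covered. In B2B 2 peaks sufficed, 65422563 to 65437120 with a fold of 13.5 and 65437268 to 65449447 with a fold of 11.1. Their summits lay at 59 and 22578 bp. In both lines the first and the last peak over the gene thus had summits near its front and its end. Each peak has 1 deposited summit, so other high points within a peak are not seen. The first B2B peak, of 14558 bp, was the longest of 16953 pol II peaks on chromosomes 1 to 12 of that line, where the median was 349 bp.

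Pol II ran past the 3′ end of NEAT1 in both lines. With peaks less than 1 kb apart joined, the A549 domain was 37098 bp long and ended 3658 bp past the gene, and the B2B domain was 31552 bp long and ended 4384 bp past it. The A549 domain began at -10673 bp and the B2B domain at -4401 bp. The A549 stretch before the gene held peaks of 3313 bp (fold 45.9) and 1000 bp (fold 24.0), the second of which held the summits of CTCF and Rad21 in B2B, at -6237 and -6243 bp. Which line had the longer domain depended on the joining, since touching peaks alone gave 11826 bp in A549 and 14558 bp in B2B. At MALAT1 the domains were 12852 bp in A549 and 11493 bp in B2B, and ended 1084 and 653 bp past the gene.

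The whole of MALAT1 lay under 1 pol II peak in each line. It ran from 65496672 to 65509157 in A549, with a fold of 91.2, and from 65497640 to 65508726 in B2B, with a fold of 56.7. The B2B peak had the highest significance of all 16953 pol II peaks of that list (−log10 q 436). The A549 peak ranked 203 of 33170 (−log10 q 532). Both summits lay 1.4 kb into the gene, at 1428 bp in A549 and 1431 bp in B2B, beside the second RefSeq start at 1405 bp whose promoter is printed above. The B2B peak began on the first base of the gene, and a separate peak of 281 bp before it had a fold of 4.82 over a background of 20.8.

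**Figure D2:**
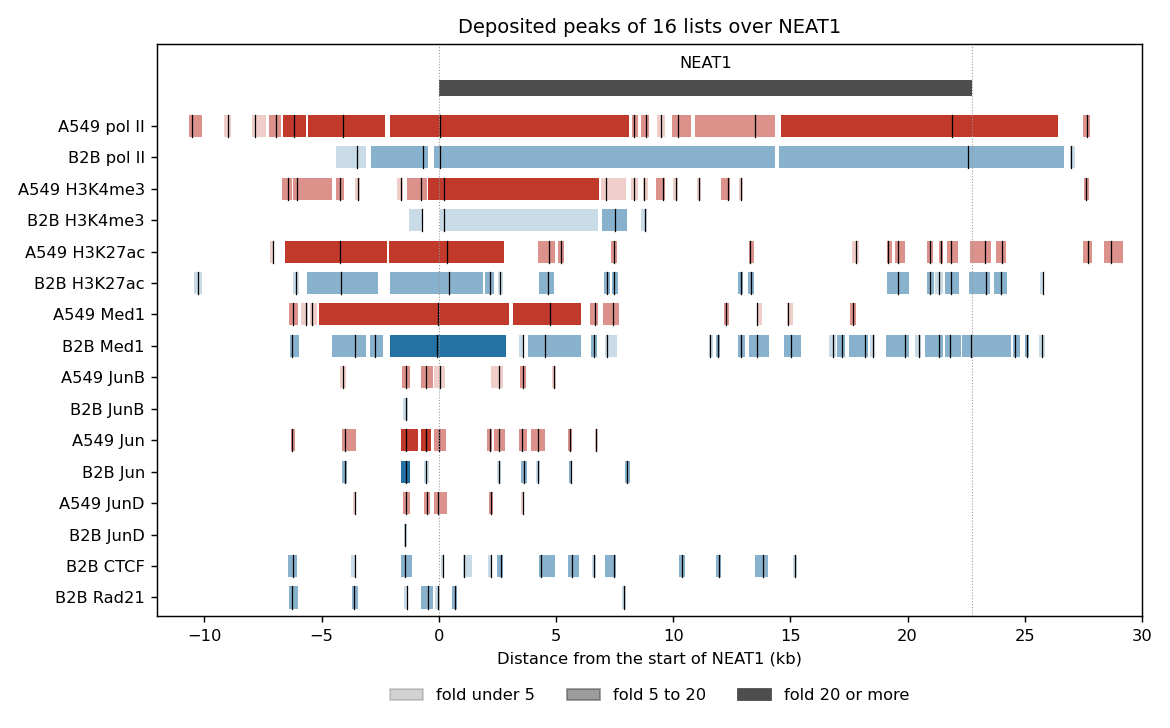
Peaks of the 16 lists from 12 kb before to 30 kb after the start of NEAT1, plotted as distance from the gene start (kb), A549 in red and B2B in blue. Each bar is 1 peak, darker where its fold enrichment was higher, black ticks are summits, and the grey bar is the gene; pol II filled the gene in both lines, while H3K4me3 stopped in its middle.

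The fold enrichments of the 2 lines cannot be set beside each other, because the local background of the peak caller differed. Solving each deposited fold and p-value for the reads piled up at the summit and for that background gave a whole number of reads for 100% of the peaks of every list. The strongest pol II peak of NEAT1 had 327 reads over a background of 4.02 in A549 and 312 reads over 22.2 in B2B. That of MALAT1 had 319 reads over 2.51 in A549 and 312 reads over 4.52 in B2B. The pileups of the 4 peaks thus lay between 312 and 327 reads, close to the highest of each list, 332 in A549 and 319 in B2B. The authors removed duplicates, and over all lists the highest pileup lay between 201 reads (B2B JunD) and 371 (B2B H3K27ac). Whether pileups this close to the highest were held down by a ceiling was not tested. Their likeness therefore does not show equal binding in the 2 lines or at the 2 genes. Within B2B the fold of MALAT1 was 56.7 and that of NEAT1 13.5 at the same pileup. How the background was made was not stated, and its part in the folds of the B2B lists was not tested beyond these values. A pileup also depends on how deeply a list was sequenced, which is unknown here.

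**Figure D3:**
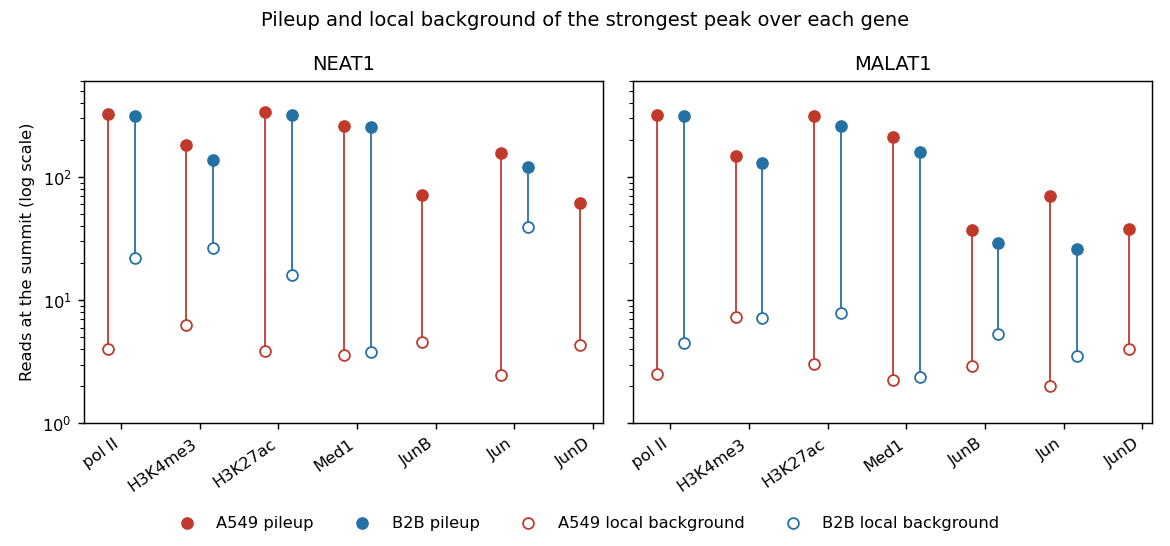
Reads piled up at the summit (filled) and local background (open) of the strongest peak over each gene for 7 targets, on a log scale, A549 in red and B2B in blue; each point is a pool of 2 replicates. Over NEAT1 the pol II pileups were 327 and 312, both near the highest of their lists, and the backgrounds were 4.02 and 22.2. A missing pair means that the list had no peak there.

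H3K4me3, the mark of active promoters, covered the body of MALAT1. It lay over 99.3% of the gene in A549 and 90.2% in B2B, and by this share MALAT1 ranked 5 and 3 of 17723 genes of at least 5 kb. The B2B peak over it, 65497860 to 65506944, was the longest H3K4me3 peak of that line at 9085 bp, against a median of 630 bp. The A549 peak, 65499037 to 65508690, was the fourth longest at 9654 bp. Their summits lay 3050 bp (fold 18.0, 148 reads over 7.26) and 2878 bp (fold 16, 129 reads over 7.15) into the gene. The highest A549 fold, 19.6, belonged to a shorter peak with its summit at 733 bp. Pileup and background were thus close in the 2 lines here.

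At NEAT1, H3K4me3 covered the front of the gene and none of its back. The first peak ran from 65422335 to 65429604 in A549 (fold 25.0, 180 reads over 6.24) and from 65422829 to 65429575 in B2B (fold 4.97, 136 reads over 26.5). It ended past the end of the short transcripts in both lines. Weaker peaks followed within 1 kb of each other, and the joined domain ended at 65435763 in A549 and at 65431639 in B2B. The front of NEAT1 that the short transcripts reach, 3740 bp, was 100% covered in A549 and 98.5% in B2B. The rest of the long transcript, 19027 bp, was 31.5% covered in A549 and 23.0% in B2B, and the last 4 of the 10 parts held no H3K4me3 in either line. Pol II covered 92.9% and 99.2% of that rest.

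H3K27ac, a mark of active promoters and enhancers, was high at both starts and returned as a cluster at both ends. It covered 27.6% of NEAT1 in A549 and 28.3% in B2B, and 48.6% and 26.7% of MALAT1. The strongest peak of NEAT1 lay at its start in both lines, 65420632 to 65425565 in A549 (fold 69.3, 338 reads over 3.89) and 65420695 to 65424672 in B2B (fold 18.6, 318 reads over 16.1). At MALAT1 it ran from 65496399 to 65498834 in A549 (fold 77.9, 312 reads over 3.02) and from 65497692 to 65498769 in B2B (fold 29.3, 258 reads over 7.83), with summits 763 and 772 bp into the gene. Smaller peaks followed at the same places in both lines, among them 3010 and 2991 bp into MALAT1 (folds 44.1 and 21.8) and 9293 and 9279 bp into it (folds 32.2 and 12.3). At the end of NEAT1 a row of peaks lay between 19 and 24 kb from its start, the strongest of them in A549 at 23314 bp with a fold of 11.

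To describe how well these places matched, summits of the 2 lines within 100 bp were counted, a measure chosen after the values were seen. Over NEAT1, 8 of 12 A549 H3K27ac peaks had such a B2B summit, and over MALAT1 4 of 6, against 38.6% of all A549 H3K27ac peaks on chromosomes 1 to 12. From the B2B side it was 8 of 13 and 4 of 7, against 44.1%. For Med1 it was 3 of 8 over NEAT1 and 5 of 7 over MALAT1, against 32.6%, and from the B2B side 3 of 19 and 5 of 7, against 31.6%. H3K4me3 summits matched for 3 of 10 A549 and 3 of 4 B2B peaks over NEAT1 and for 0 of 3 and 0 of 2 over MALAT1, against 30.0% and 37.6%. Pol II summits matched for 1 of 7 and 1 of 3 over NEAT1 and for 1 of 1 and 1 of 2 over MALAT1, against 21.1% and 41.3%. Jun summits matched for 5 of 9 and 4 of 6 over NEAT1 and for 2 of 5 and 2 of 4 over MALAT1, against 45.9% and 34.7%. Of the JunB peaks, 0 of 5 over NEAT1 and 0 of 6 over MALAT1 matched in A549 and 0 of 1 over MALAT1 in B2B, against 18.2% and 57.3%. Of the A549 JunD peaks, 0 of 4 and 0 of 2 matched, against 23.8%, and B2B, with 24.8% over all its JunD peaks, had none over the genes.

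Med1, a subunit of the Mediator complex that links factors to pol II, was among the strongest of its lists at both genes. The A549 peak at the start of NEAT1, 65417652 to 65425774, ranked 7 of 17994 by significance (fold 57.3, 261 reads over 3.58). The B2B peak, 65420694 to 65425639, also ranked 7, of 18546 (fold 52.7, 252 reads over 3.80). At the start of MALAT1 the ranks were 11 in A549 (fold 64.9, 209 reads over 2.24) and 28 in B2B (fold 47.4, 159 reads over 2.37). The summits lay at -26 and -54 bp from the start of NEAT1 and at -2 and 52 bp from that of MALAT1. The background of Med1 was much the same in both lines, unlike that of pol II.

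Med1 cover differed along the body of NEAT1. It lay over 34.4% of the gene in A549, in 8 peaks, and over 57.7% in B2B, in 19 peaks, and over 22.5% and 52.9% of the part that only the long transcript reaches. Many of the B2B peaks lay in the second part of the gene, where their pileups were low, from 14 to 37 reads over backgrounds of 2.49 to 4.47. Over MALAT1 it covered 87.4% in A549 and 79.4% in B2B, in 7 peaks each, and by this share MALAT1 ranked 3 in A549 and 1 in B2B.

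**Figure D4:**
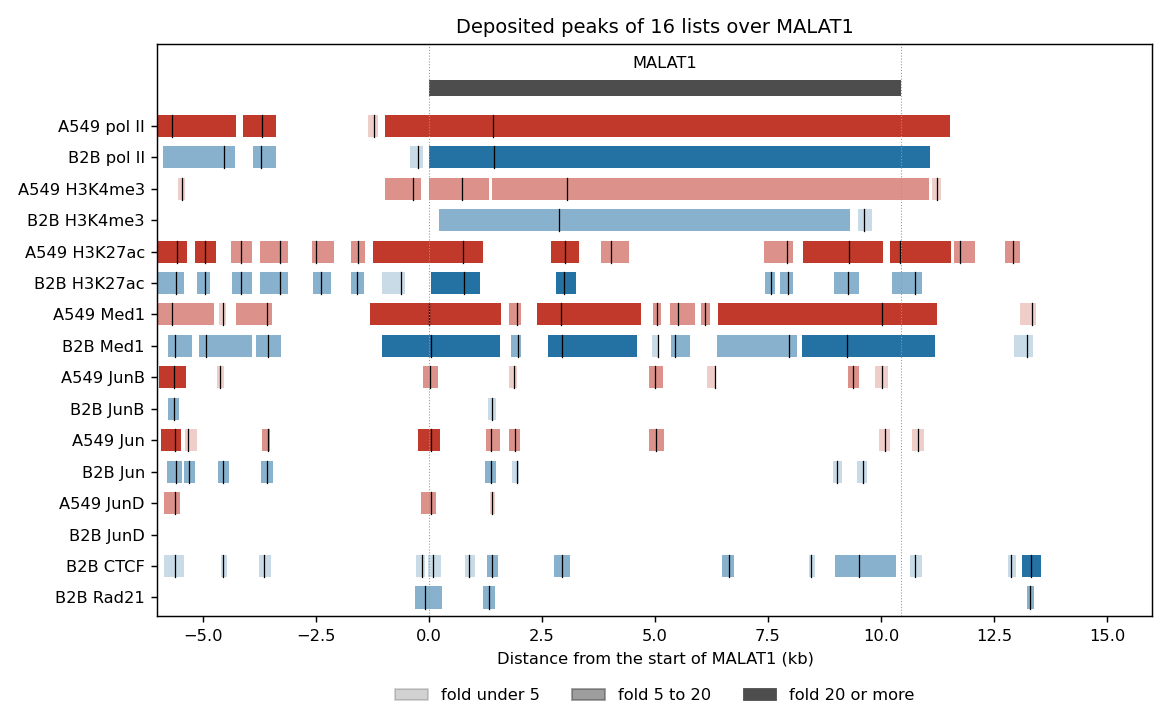
Peaks of the 16 lists from 6 kb before to 16 kb after the start of MALAT1, plotted as distance from the gene start (kb), A549 in red and B2B in blue. Each bar is 1 peak, darker where its fold was higher, black ticks are summits, and the grey bar is the gene; pol II covered 100% of the gene in both lines, H3K4me3 99.3% and 90.2% and Med1 87.4% and 79.4%, and Jun-family peaks stood at its start in A549 and 1.4 kb into it in both lines.

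Jun-family peaks stood at the starts of both genes in A549. Over NEAT1 or the 1 kb before it A549 had 5 peaks of JunB, 9 of Jun and 4 of JunD, while B2B had 6 of Jun and 0 of the others. Over MALAT1 A549 had 6 of JunB, 5 of Jun and 2 of JunD, while B2B had 1 of JunB, 4 of Jun and 0 of JunD. Among the 24480 genes, 32.8%, 39.6% and 17.1% had such a JunB, Jun and JunD peak in A549 and 12.2%, 35.3% and 9.59% in B2B. Over all targets NEAT1 had a peak in 14 of the 16 lists and MALAT1 in 15, which 10.4% of the genes had in at least 14. For the other lists the shares of genes with a peak were 52.6% for pol II, 56.3% for H3K4me3, 55.4% for H3K27ac and 40.4% for Med1 in A549. In B2B they were 38.7%, 45.5%, 47.4% and 44.6% in the same order, 50.8% for CTCF and 53.6% for Rad21.

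Just before NEAT1 the 2 strongest sites differed in which proteins had a peak in B2B. The site at -527 bp, which holds the CRE printed above, carried the whole family in A549, with a Jun fold of 44.9, a JunB fold of 12.8 and a JunD fold of 11.6. In B2B it held only a Jun peak, with its summit on the same base and a fold of 3.04. The Jun pileups were 156 reads over 2.49 in A549 and 121 reads over 39.1 in B2B. The reads at the summit therefore differed far less than the folds, and the B2B background there was 33.6 times the lowest of its list, against 2.50 times in A549. No value can be given for JunB and JunD in B2B, which had no peak there.

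The site at -1401 bp carried the whole family in each line. Its region overlapped ENSG00000290057, a long non-coding gene on the plus strand (65421448 to 65421864), and the A549 Jun summit, at 65421373, lay just before that gene. Every list had a peak within 1 kb of the start of ENSG00000290057, so the site is not particular to NEAT1. The Jun fold was 27.4 in A549 (123 reads over 3.52) and 22 in B2B (179 reads over 7.17). JunB had folds of 8.46 and 4.69, from 58 and 69 reads, and JunD of 6.06 and 3.89, from 43 and 48 reads. The summits of the 6 peaks lay between -1432 and -1396 bp. Only the A549 Jun peak was long enough to reach the 1 kb before the gene, so this site is missing from the B2B counts above.

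The other NEAT1 sites were weaker. At the start itself all 3 proteins had a peak in A549, with folds of 4.46, 13.6 and 5.34 for JunB, Jun and JunD. The Jun peak had 58 reads over 3.35. None of the 3 had a peak there in B2B, so no B2B value can be given. At 3530 bp, near the end of the short transcripts, all 3 had one in A549, with a Jun fold of 15.6 (54 reads over 2.53), and Jun had one in B2B, with a fold of 5.00 (26 reads over 4.40). At 2566 bp the Jun folds were 7.08 in A549 and 3.96 in B2B. The 5 sites further in had folds between 3.70 and 8.48 and 1 protein each. None of the Jun-family peaks lay past 8015 bp, so the back of NEAT1 had none in either line. Of the 10 regions over NEAT1 or before it, 6 were called in both lines, 3 in A549 alone and 1 in B2B alone.

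The strongest site of MALAT1, 44 bp from the start, was called in A549 alone. JunB, Jun and JunD had folds of 9.72, 23.6 and 7.72 there, with 37 reads over 2.91, 70 over 2.01 and 38 over 4.05. B2B had no Jun-family peak there, so its reads are unknown. Other B2B peaks nearby had high backgrounds, 36.5 for CTCF at 101 bp and 21.5 for Rad21 at -74 bp. Beside the second start the lines met. Jun had a fold of 6.44 at 1374 bp in A549 (27 reads over 3.35) and of 5.94 at 1368 bp in B2B (26 reads over 3.55). JunD had a fold of 3.92 at 1396 bp in A549, and JunB a fold of 4.75 at 1395 bp in B2B. CTCF had its summit at 1400 bp in B2B (fold 9.59) and Rad21 at 1331 bp (fold 6.69). These 6 summits of 5 proteins lay between 1331 and 1400 bp, just before the summits of pol II.

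Further into MALAT1 there was a site at 1902 bp in both lines, with Jun folds of 5.65 and 4.45, and a site at 5017 bp in A549 alone, with folds of 5.65 for JunB and 11.3 for Jun. The 4 remaining regions over the gene had folds of at most 5.54. Of the 8 regions over MALAT1, 3 were called in both lines, 4 in A549 alone and 1 in B2B alone.

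In the whole window the A549 Jun-family peaks merged into 40 regions and the B2B peaks into 28. Of the A549 regions 22 (55%, Wilson 95% interval 39.8 to 69.3%) overlapped one of B2B, against 45.4% on chromosomes 1 to 12. Of the B2B regions 23 (82.1%, 64.4 to 92.1%) overlapped one of A549, against 40.6%. These intervals cover counting error only. All these shares rest on an overlap of 1 bp. With 50% reciprocal overlap 13 of the 40 A549 and 13 of the 28 B2B regions were shared. The shares on chromosomes 1 to 12 were not computed under that rule, so no excess over them is shown there. Between the 2 genes 8 of 10 regions were called in both lines. The whole family met at 12 regions in A549 and at 3 in B2B. The share of such regions on chromosomes 1 to 12 was not counted, so these counts are not a trait of the window. The lists there differed in length, with 19926, 24939 and 6438 peaks of JunB, Jun and JunD in A549. In B2B they held 6318, 32978 and 6206.

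**Figure D5:**
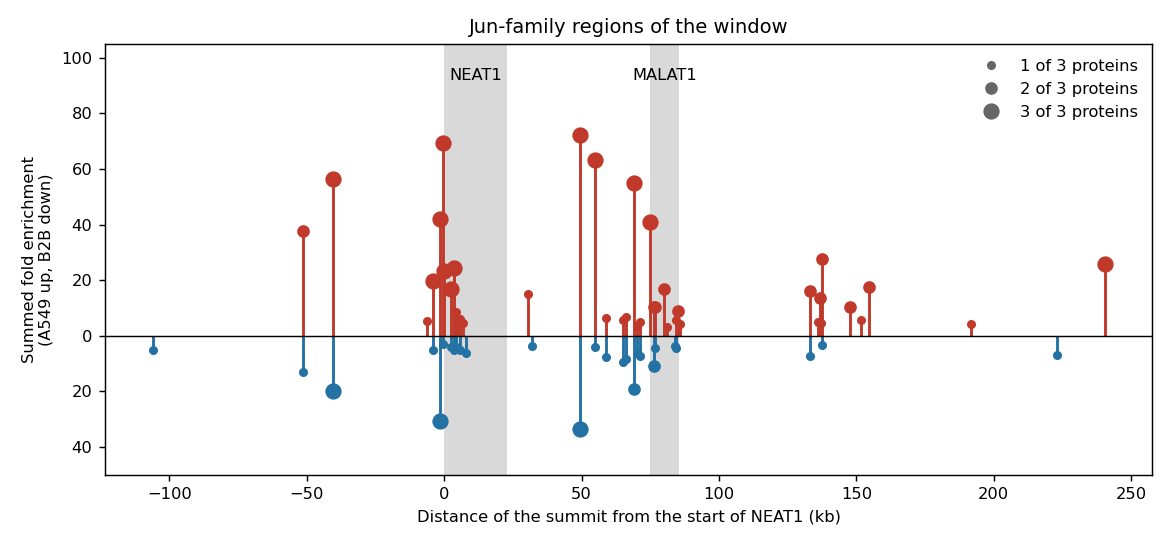
Summed fold enrichment of JunB, Jun and JunD at each of the 45 Jun-family regions of the window, A549 upward and B2B downward, against the distance of the summit from the start of NEAT1 (kb). Larger points mark more of the 3 proteins and grey bands are the genes; the regions at 49497 bp, between the genes, and at -1401 bp had the highest sums of folds in B2B, 33.6 and 30.6, an order that read pileups do not keep.

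Of the 6 regions with the highest summed fold, 2 are the NEAT1 sites at -1401 and -527 bp and 4 lie elsewhere. Their sequences are given because all 4 held the AP-1 sequence, which none of the windows printed above for the 2 genes held.
SLC25A45 exon, chr11:65382429-65382529: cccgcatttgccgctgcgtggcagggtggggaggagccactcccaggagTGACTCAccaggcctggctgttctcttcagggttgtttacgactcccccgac
NEAT1 49497, chr11:65472221-65472321: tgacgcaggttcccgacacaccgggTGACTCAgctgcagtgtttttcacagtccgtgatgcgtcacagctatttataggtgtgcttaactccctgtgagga
NEAT1 54802, chr11:65477526-65477626: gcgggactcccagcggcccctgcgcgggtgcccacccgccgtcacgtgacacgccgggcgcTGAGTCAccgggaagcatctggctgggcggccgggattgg
NEAT1 69251, chr11:65491975-65492075: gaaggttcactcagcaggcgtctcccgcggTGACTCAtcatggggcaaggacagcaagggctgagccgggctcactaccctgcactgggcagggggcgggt

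The region 49497 bp from the start of NEAT1 overlapped the start of ENSG00000289259, a long non-coding gene on the minus strand (65471472 to 65472267). Its summit, at 65472271, lay just before that start. Of all regions it had the highest sum of folds over both lines. That order rests on the folds, since the region in an exon of SLC25A45 had more reads at its JunB and JunD summits in both lines and at its Jun summit in B2B. Each of the 3 proteins had a peak there in either line, with folds of 22.4, 43.9 and 5.77 for JunB, Jun and JunD in A549 and 4.51, 23.8 and 5.36 in B2B. The pileups were 100, 190 and 43 reads in A549 and 32, 108 and 35 in B2B. The region in an exon of SLC25A45, which encodes a mitochondrial carrier, was also bound by all 3 in both lines, with 14.5, 33.7 and 8.41 in A549 and 4.66, 12.2 and 3.13 in B2B. Its pileups were closer than its folds, with JunB at 152 reads in A549 and 111 in B2B, Jun at 168 and 162, and JunD at 66 and 64. The backgrounds were 9.56 and 23, 4.02 and 12.3, and 6.96 and 19.8 in the same order. The region at 54802 bp overlapped the start of ENSG00000289883, a long non-coding gene on the minus strand (65476515 to 65477572). It had folds of 23.1, 32.9 and 7.26 in A549 and only Jun, at 4.03, in B2B. Here too the Jun pileups were alike, 131 reads over 3.02 in A549 and 125 reads over 30.3 in B2B. The region at 69251 bp, -5615 bp from the start of MALAT1, had folds of 26.3, 20.8 and 7.78 in A549 and 7.31 for JunB and 11.7 for Jun in B2B. Its JunB pileups were not alike, 122 reads over 3.68 in A549 and 50 over 5.97 in B2B. Those of Jun were 60 reads over 1.93 and 51 over 3.44.

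The AP-1 sequence was therefore not spread evenly over the regions. It lay within 50 bp of the summit at 2 of the 18 regions over the 2 genes or the 1 kb before them and at 11 of the other 27 regions of the window. Over all peaks on chromosomes 1 to 12 it lay at 46.1% of the A549 JunB peaks, 42.3% of Jun and 35.4% of JunD, and at 52.8%, 39.5% and 44.7% of those of B2B. The 2 regions with it lay 5606 bp into NEAT1 (Jun folds 5.93 and 5.19) and 5017 bp into MALAT1 (A549 Jun fold 11.3). These are counts of a sequence in a window and not of bound sites.

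CTCF and Rad21, which hold chromatin loops together, were measured in B2B alone. A CTCF peak past MALAT1, from 65510753 to 65511167, had a fold of 34.5 with 164 reads over 3.78, and a weaker Rad21 peak (fold 7.30) shared its place. Before NEAT1 both had a peak at the place named above, CTCF with a fold of 9.24 (239 reads over 25.0) and Rad21 with a fold of 18.1 (289 reads over 15). For CTCF the peak before NEAT1 thus had more reads and the lower fold. For Rad21 it had more reads and the higher fold, since the Rad21 peak past MALAT1 had 20 reads over 1.88. Between the genes the CTCF peak at 65468878 to 65469176 had the highest fold, 21.5 (128 reads over 5), and that at 65471429 to 65471765 the highest significance (fold 14.6, 189 reads over 12). There were 12 CTCF peaks over NEAT1 or the 1 kb before it, with folds between 2.57 and 10.2. At MALAT1 there were 8, with folds between 2.28 and 9.59. The MALAT1 peak with the fold of 2.28 lay before the gene, with its summit at -152 bp. By covered share MALAT1 ranked 1 of the 17723 genes for CTCF (27.7%) and NEAT1 ranked 9 (17.3%). These peaks were not among the strong ones of the list. The most significant of them ranked 18923 at MALAT1 and 22488 at NEAT1 of 42595 CTCF peaks. Whether such peaks reflect bound CTCF was not tested. At the start of MALAT1 the Rad21 peak had 298 reads over 21.5, the highest pileup of all 25704 Rad21 peaks on chromosomes 1 to 12. By significance it ranked only 739, and by its fold of 13.3 it ranked 3731.

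Genes whose cover was most like that of the 2 genes were sought among genes of 0.5 to 2 times their length, by the Euclidean distance between the covered shares in the 16 lists. For NEAT1 the nearest of 6952 genes were MCL1 (distance 46.5 percentage points), AMOTL2 (58.4), DUSP5 (61.6), SLC38A2 (68.2) and BRD2 (69.0), against a median distance of 165. MCL1, which encodes an inhibitor of apoptosis, was 80.7% under pol II in A549 and 75.4% in B2B. For MALAT1 the nearest of 6329 genes was TALAM1 (18.5), which lies within it, and the next ones included BHLHE40 (72.8), MYC (80.4) and KLF6 (93.0), against a median of 235. BHLHE40, which encodes a transcriptional repressor, was 100% under pol II in A549 and 79.9% in B2B.

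Of 31 other genes with a start site in the window, 27 carried pol II and H3K4me3 within 1 kb of a start in A549 and 18 in B2B, all of which were among the 27. They included CDC42EP2, DPF2, TIGD3, SLC25A45, FRMD8, TALAM1, LTBP3, ZNRD2-DT, ZNRD2, FAM89B, EHBP1L1, MAP3K11, PCNX3, SIPA1, RELA and RELA-DT, and 10 genes without a symbol. The 15 protein-coding genes among the 31 were covered by pol II over 1.28 to 45.2% of their length in A549 (median 13%) and over 0 to 14.3% in B2B (median 1.38%). All 15 were thus below the cover of NEAT1 and MALAT1 in both lines. Of the long non-coding genes, TALAM1, ENSG00000290057, ENSG00000290061 and ENSG00000270117 were covered over 100% in both lines, and ENSG00000289883 over 100% and 89.2%.

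Finally, 3 lists of related genes were read on the same chromosomes 1 to 12. Of the genes for paraspeckle proteins 13 of 25 lie there, and all 13 carried H3K4me3 at a start site in both lines. A Jun peak within 1 kb of a start stood at 8 in A549 and 3 in B2B, a JunB peak at 4 and 0, and a JunD peak at 4 and 0. Of 10 genes for nuclear speckle proteins and MALAT1 processing, Jun had one at 4 and 1, JunB at 3 and 0 and JunD at 3 and 0. Of 15 other well-known long non-coding RNA genes, Jun had one at 12 and 7, JunB at 11 and 3 and JunD at 10 and 3. Among all 10131 genes with H3K4me3 at a start in both lines, Jun stood at 48.1% in A549 and 23.6% in B2B, JunB at 41.0% and 4.49%, and JunD at 25.1% and 2.72%. The median gene of the paraspeckle list was 38.4% under pol II in A549 and 6.36% in B2B, that of the speckle list 6.38% and 2.22%, and that of the long non-coding list 17.5% and 4.73%. The following genes were picked after their values were seen. SRSF10 of the paraspeckle list was covered over 40% in A549 and 64% in B2B. Pol II covered SFPQ, which encodes a core paraspeckle protein, over 96.2% in A549 and 46.9% in B2B, and HNRNPA1 over 100% and 80.4%. SRSF3, which encodes a splicing factor of speckles, was covered over 99.5% and 78.6%. GAS5, a host gene of small nucleolar RNAs, was covered over 100% in A549 and 36.3% in B2B.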

How the data were processed

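Per the methods of the study and the labels, the authors aligned ChIP-seq reads of A549 and BEAS-2B cells to hg38 with Bowtie2 2.4.4, removed duplicates with their own code, merged the 2 replicates of each group, scaled counts with SAMtools 1.13 and called peaks with MACS2 2.2.7.1. The options and the control of the caller are not given in the sources used here. Each deposited list gave per peak a fold enrichment, the ratio of the summit pileup to the local background with 1 added to each. It also gave a score, which the authors' caller wrote as 10 times the −log10 q rounded down, and deposited −log10 values of p and q. The lowest −log10 q of a list was between 2 and 2.29. Sequencing depth is unknown.

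The members and gene lists were chosen with earlier results of these data known. Intervals were compared in Python 3.11.15 with NumPy 2.4.6, with an overlap of 1 bp, on GENCODE release 44. A peak counted for a gene if it touched the gene or the 1 kb before it, and genes were ranked on chromosomes 1 to 12, which every list covers. Pileup and background were solved from fold and p, and a pileup counted as whole if it gave back the deposited −log10 p within 0.006%. On simulated peaks 5000 of 5000 pileups were recovered. The shares of Jun-family regions in the window that overlapped the other line carry Wilson 95% intervals (SciPy 1.17.1), and other shares carry none. Sequence was read with pysam 0.24.0, and promoters were taken from RefSeq, where MALAT1 matched and NEAT1 had no entry. Named genes were the 2 members, window genes with pol II and H3K4me3 at a start, the 5 nearest genes by cover, and 3 lists. Jun-family regions over the members and the 6 strongest were described, with sequence for those of all 3 proteins in either line. Since each list is 1 pool, no test was made. Alternatives were a −log10 q of at least 5, other gene limits, joining distances, overlap rules, list lengths and rankings. The input samples were not analysed here. A few genes that these rules name are not reported here.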

Additional observations from a re-analysis of the deposited data

How the results depend on the processing

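No paired analysis was possible because each list pools its replicates, and for the same reason no replicate could be left out. Of 134 alternative values, 118 stayed within 1.5 times the value reported or, for shares under pol II, within its counting interval. That Wilson 95% interval took each base pair of the gene as 1 independent trial, which neighbouring base pairs are not. At a −log10 q of at least 5 only 1 H3K4me3 and 2 Jun peaks of B2B lay over MALAT1. With 1 kb added on each side, pol II covered 94.6% and 98.3% of NEAT1 in A549 and B2B and 99.7% and 91.4% of MALAT1, so that the difference for MALAT1 became 8.32 percentage points. Joining only touching peaks gave domains of 11826 and 14558 bp over NEAT1 and turned the ratio of A549 to B2B to 0.812. Joining peaks under 3 kb apart gave 21378 bp over MALAT1 in B2B and a ratio of 0.823. With 50% reciprocal overlap 13 regions of A549 and 13 of B2B were shared. By covered share MALAT1 ranked 1 in A549 and 1 in B2B, tied with the other genes at 100%, 26 in all in A549 and 3 in B2B. The cause of these shifts was not tested. Depth is unknown and was not varied, and lists without a peak give no upper limit.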

Other observations

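The far end of the window, from 58 to 166 kb past the start of MALAT1, held 10 Jun-family regions of A549 and 3 of B2B. Of these, 2 were shared, against 45.4% of the A549 and 40.6% of the B2B regions on chromosomes 1 to 12, and no test was made. Near LTBP3, which encodes a binding protein of latent TGF-beta, the region 62564 bp from the start of MALAT1 had folds of 13.6 for JunB and 14.2 for Jun in A549 and 3.34 for Jun in B2B, and held the AP-1 sequence. The Jun pileups there were 44 reads over 2.18 in A549 and 24 over 6.48 in B2B. RELA encodes the p65 subunit of NF-kappaB. At the front of RELA-DT, just before the start of RELA, all 3 proteins had a peak in A549, with folds of 5.70, 15.5 and 4.62. None had one in B2B, so no B2B value can be given there. Pol II covered 35% of RELA in A549 and 2.95% in B2B.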
